A study of Mus musculus with 2 samples.

Results

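Liver sinusoidal endothelial cells (LSECs) of control mice that carried RNA of the interferon-induced genes Cxcl9, Cxcl10 and Rsad2 were described by single-cell RNA sequencing (scRNA-seq). The members were 1826 of 3813 control barcodes of an endothelial gate, or 47.9% (exact 95% Clopper-Pearson interval 46.3 to 49.5%), and 1826 of the 12755 barcodes of both libraries. A barcode stands for 1 droplet with RNA of a cell, and a unique molecular identifier (UMI) for 1 captured mRNA molecule. A member had at least 1500 UMIs and 750 genes, at least 2 UMIs of the endothelial genes Pecam1, Cdh5 and Ptprb together, no UMI of Ptprc, Adgre1, Cd79a or Dcn (markers of leukocytes, Kupffer cells, B cells and mesenchymal cells), no UMI of Vwf or Rspo3, and at least 3 UMIs of Cxcl9, Cxcl10 and Rsad2 together. Members were thus chosen by their raw UMIs of these 3 genes, whose levels are given as a description. The comparison group was the 974 barcodes of the same gate with 0 UMIs of the 3 genes, and the 1013 barcodes with 1 or 2 UMIs stood between both.

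The study compared a control library with a Maf LSEC-KO library, with 3 pooled mice and 1 library per condition. Maf LSEC-KO mice carried Clec4g-iCre tg/wt together with Maf fl/fl, where Cre is driven by the promoter of the LSEC gene Clec4g and removes the transcription factor gene Maf. Controls were littermates without the transgene, Clec4g-iCre wt/wt with Maf fl/fl or Maf fl/wt; which of these entered the library is not stated, and the labels call the control wild type. The age and sex of the sequenced mice are not stated in the sources used here, and the RNA of sex-linked genes in control barcodes is given below. Livers were digested and cells were sorted on CD146 with magnetic beads, so that all shares given below are shares of sorted cells. Maf reached 3586 CPM (counts per 1e6 UMIs) in the members and 109 CPM in the barcodes of the Maf LSEC-KO library that met the same rule. In all, 47681895 UMIs fell on 5664 barcodes of the control library, and 89872764 UMIs on 7091 barcodes of the other. Both libraries shared 10 barcode sequences, of which 3 were members whose sequence also passed the gate in the Maf LSEC-KO library. No test was possible with 1 library per condition, cells are not replicates, and the 95% intervals below (Clopper-Pearson for shares, Poisson for sums and their ratios) cover counting error only.

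Type I interferons (IFN-α and IFN-β) and type II interferon (IFN-γ) bind separate receptors and act through Janus kinases on transcription factors. Type I signalling acts on interferon-stimulated response elements (ISRE) in promoters, whereas IFN-γ acts on gamma-activated sites (GAS). CXCL9 and CXCL10 are chemokines that attract T and NK cells through the receptor CXCR3, and Rsad2 encodes viperin, an antiviral enzyme. LSECs line the sinusoids of the liver, clear material from the blood and present antigens to T cells. Cxcl9 (chr5:92321347-92328079) and Cxcl10 (chr5:92346638-92348889) are neighbours on the minus strand, and Rsad2 (chr12:26442746-26456452, minus strand) lies beside Cmpk2 (chr12:26469204-26479837, plus strand), all in mm10.

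Promoter windows of 250 bases before the gene start, read from RefSeq (GRCm38.p6), are shown for the 3 genes of the rule and for 3 genes whose levels went with them, to set their letters beside both motifs. Isg15 encodes a ubiquitin-like protein, Ifit3 an antiviral RNA-binding family member, and Igtp a GTPase that acts on vacuoles of intracellular pathogens. Each window is printed 5′ to 3′ along the gene's own strand, and capitals mark matches to an ISRE core (GAAA, any 2 bases, GAAA) or, in Igtp, also to a GAS (TTC, any 3 bases, GAA), on either strand. The windows are chr5:92328080-92328329 for Cxcl9, chr5:92348890-92349139 for Cxcl10, chr12:26456453-26456702 for Rsad2 and chr4:156200819-156201068 for Isg15, all on the minus strand, and chr19:34583279-34583528 for Ifit3 and chr11:58199306-58199555 for Igtp, on the plus strand.
Cxcl9: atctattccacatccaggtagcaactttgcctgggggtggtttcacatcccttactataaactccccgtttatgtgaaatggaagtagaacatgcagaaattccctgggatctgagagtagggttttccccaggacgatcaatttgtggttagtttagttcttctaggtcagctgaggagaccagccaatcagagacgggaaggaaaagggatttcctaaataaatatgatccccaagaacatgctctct
Cxcl10: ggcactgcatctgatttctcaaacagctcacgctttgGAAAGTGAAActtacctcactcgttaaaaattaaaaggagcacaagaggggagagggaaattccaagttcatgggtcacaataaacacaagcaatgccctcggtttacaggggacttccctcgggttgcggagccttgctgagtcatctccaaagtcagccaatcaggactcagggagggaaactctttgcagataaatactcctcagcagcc
Rsad2: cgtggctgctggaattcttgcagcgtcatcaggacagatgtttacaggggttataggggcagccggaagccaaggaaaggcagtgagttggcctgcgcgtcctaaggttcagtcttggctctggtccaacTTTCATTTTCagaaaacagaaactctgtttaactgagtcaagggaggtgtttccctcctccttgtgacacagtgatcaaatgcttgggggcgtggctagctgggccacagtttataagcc
Isg15: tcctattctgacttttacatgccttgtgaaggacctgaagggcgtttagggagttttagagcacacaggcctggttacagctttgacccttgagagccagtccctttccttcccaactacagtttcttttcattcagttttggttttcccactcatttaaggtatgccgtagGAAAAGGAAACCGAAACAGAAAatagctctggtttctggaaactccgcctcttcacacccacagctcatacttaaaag
Ifit3: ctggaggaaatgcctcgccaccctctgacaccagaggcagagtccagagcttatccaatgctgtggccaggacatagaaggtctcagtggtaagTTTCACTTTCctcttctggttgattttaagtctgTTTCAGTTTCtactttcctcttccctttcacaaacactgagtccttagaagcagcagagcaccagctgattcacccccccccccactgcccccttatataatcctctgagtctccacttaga
Igtp: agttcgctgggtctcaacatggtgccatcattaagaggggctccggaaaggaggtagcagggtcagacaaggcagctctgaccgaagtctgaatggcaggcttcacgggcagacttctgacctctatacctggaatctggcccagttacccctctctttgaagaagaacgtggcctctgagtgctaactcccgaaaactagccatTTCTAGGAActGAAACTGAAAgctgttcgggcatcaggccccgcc
The Cxcl9 window held no match to either motif. The ISRE core began 213 bases before the start of Cxcl10 and 120 bases before that of Rsad2. Isg15 had 3 overlapping ISRE cores, at 78, 72 and 66 bases, and Ifit3 had 2, at 156 and 122 bases. In Igtp an ISRE core at 34 bases followed a GAS at 45 bases. Of all 32851 windows, 2.98% held an ISRE core and 7.02% a GAS. A match to these letters is not a measured binding site.

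Among members, Cxcl9 was found in 89.9% of barcodes (778.7 CPM, a median of 5 UMIs and up to 347), Rsad2 in 69.5% (260.0 CPM, a median of 1 and up to 238) and Cxcl10 in 51.3% (322.3 CPM, a median of 1 and up to 282). These are UMIs of 3′ ends, which are not comparable between genes in absolute terms. Members held 75.4% of all Cxcl9 UMIs of the control library, 72.4% of those of Cxcl10 and 66.2% of those of Rsad2. All 3 genes were found together in 590 members (32.3%), Cxcl9 and Rsad2 without Cxcl10 in 523, and Cxcl9 alone in 283. Rsad2 alone was found in 84 members, Cxcl10 with Rsad2 in 72 and Cxcl10 alone in 29. The number of UMIs per member was uneven: 483 members had 3 or 4 UMIs of the 3 genes, 579 had 5 to 9, 416 had 10 to 19 and 280 had 20 to 49. The 68 barcodes with 50 or more UMIs (up to 659) made up 1.78% of the gate and held 24.5% of the UMIs of the 3 genes. The tenth of members with the most Cxcl10 (183 barcodes) held 68.6% of the members' Cxcl10 UMIs, against 42.0% for Cxcl9 and 46.9% for Rsad2.

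The share of barcodes that met the rule was higher in deeper barcodes, from 9.85% (6.88 to 13.6%) between 1500 and 2500 UMIs to 94.3% (89.8 to 97.2%) at 20000 UMIs or more. Members had a median of 10969 UMIs (1552 to 75713) and barcodes with 0 UMIs of the 3 genes a median of 4825. A share of members is hence a share at a given depth. The level of the 3 genes was 553 CPM in the shallowest barcodes, between 578 and 626 CPM from 2500 to 9000 UMIs, and 1206 CPM between 13000 and 20000 UMIs. With every barcode thinned at random to 2700 UMIs, and the 387 shallower ones left out, 802 of 3426 control LSECs met the rule (23.4%, 22.0 to 24.9%). Just outside the threshold, the 411 barcodes with 2 UMIs had a median of 7699 UMIs and 5894 CPM of interferon-stimulated genes in sum. Just inside it, the 263 with 3 UMIs had a median of 7943 UMIs and 6440 CPM.

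**Figure D1:**
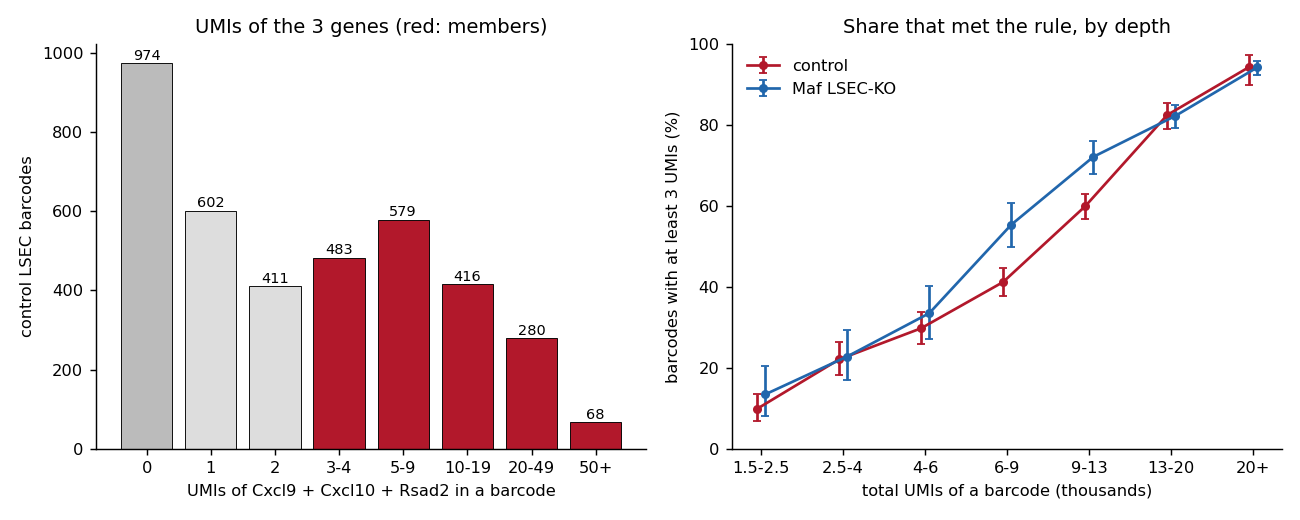
Left: number of control LSEC barcodes by their UMIs of Cxcl9, Cxcl10 and Rsad2 together, with members in red. Right: share of barcodes with at least 3 such UMIs by total UMIs of the barcode, in control and Maf LSEC-KO, with 95% Clopper-Pearson intervals. In the control the share runs from 9.85% in the shallowest to 94.3% in the deepest barcodes.

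Barcodes with markers of other cell types were few. No barcode of 12 with B cell markers and none of 9 with T or NK cell markers in the control library had 3 or more UMIs (upper limits 26.5% and 33.6%), at median depths of 4708 and 5398 UMIs. Of 17 barcodes with Kupffer cell markers, 1 had 3 or more, at a median of 2601 UMIs. The barcodes of these cell types were taken only when they had no UMI of Pecam1, Cdh5 or Ptprb. In thinned barcodes at least 1 UMI was found in 58.9% of gated LSECs (57.2 to 60.6%), 1 of 12 B cell, 0 of 8 T or NK cell and 2 of 7 Kupffer cell barcodes (28.6%, 3.67 to 71.0%). The LSEC gene Clec4g was found at 285 CPM in the T or NK cell barcodes and at 3410 CPM in the paired members described below. Among endothelial barcodes that the rule left out, 57 of 149 with Vwf (38.3%) and 151 of 344 with Rspo3 (43.9%), which mark cells of larger vessels and pericentral cells, had 3 or more UMIs. Thinned, these shares were 15.1% (9.69 to 21.9%) and 14.8% (11.2 to 19.2%), both with intervals below that of the LSECs of the gate. In the Maf LSEC-KO library 7 of 70 Kupffer cell, 0 of 10 B cell and 1 of 23 T or NK cell barcodes had 3 or more UMIs. Cxcl9 was at 413 CPM (333 to 507 CPM) in these 70 and at 549 CPM in the gated endothelial barcodes of that library. The 3 genes were thus not confined to LSECs there.

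To compare other genes at one depth, each barcode with 0 UMIs was paired with the member nearest in total UMIs, within 5.13%, which gave 660 pairs (median 6604 UMIs in members and 6612.5 in the others, with 2573.5 and 2589 genes). The paired members are the shallower ones: the 1166 unpaired members had a median of 13149.5 UMIs, and 314 shallow barcodes with 0 UMIs stayed unpaired. UMIs were summed over the barcodes of a group and given as CPM, with mitochondrial and ribosomal protein genes left out of the total. A gene was described when the mean of both groups was at least 20 CPM. A gene below 20 CPM in 1 group could thus be described only through the other group. In bulk sums of this kind, fewer cells with a transcript and less RNA per cell cannot be told apart, so the share of barcodes with a UMI is given beside the levels. Of 6768 genes described, the 3 of the rule left out, 50 were at least 2-fold higher in members (0.739%) and 11 at least 2-fold lower (0.163%), around a median log2 ratio of -0.02. The ratio was above 0 for 3075 of the 6768. Of the 50 higher genes, 26 belonged to the interferon-stimulated, GBP and IRG, or MHC class I lists, which held 69 of the genes described. In the unpaired members, compared with the same 660 barcodes, 43 of the 50 were also at least 2-fold higher. This count is no independent support, because the 50 were chosen by their ratio to these same barcodes. Depth was not matched there (medians of 13149.5 and 6612.5 UMIs), and the share over all genes described was not computed.

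Interferon-stimulated genes were higher in members as a group. All 38 genes of this list that were described had a log2 ratio above 0, against 3075 of all 6768 described. Of the 38, 18 were at least 2-fold higher (background 0.739%), none was 2-fold lower, and the median was 0.95. Oas2, Ifit1, Ifit3b, Ifi27l2a, Usp18 and Oas1a, among the 18, were below 20 CPM in the paired barcodes. These genes, and Isg20 among the 38, reached the minimum level only through the members. Irf7, the transcription factor that amplifies type I interferon production, was at 169 CPM in members and 28.9 CPM in the paired barcodes (log2 ratio 2.55, interval 2.27 to 2.85), with a UMI in 48.2% and 13.8% of barcodes. Isg15 was at 180 and 44.5 CPM (2.01, 1.78 to 2.26), in 42.1% and 19.7% of barcodes. Ifit3 had 116 and 20.1 CPM (2.54), and Ifit1, of the same family of antiviral RNA-binding proteins, 82.7 and 16.9 CPM (2.29). Reads of Ifit3 and its close copy Ifit3b (1.95) may be divided between both, so that their separate levels are uncertain. Oas2, an oligoadenylate synthetase that activates RNA decay on sensing double-stranded RNA, had the largest ratio of the list, with 54.8 and 7.09 CPM (2.95). Cmpk2, the nucleotide kinase next to Rsad2, was at 69.1 and 22.7 CPM (1.60).

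The restriction factors Ifitm3 (2150 and 1290 CPM, log2 ratio 0.74) and Bst2 (1297 and 784 CPM, 0.73) were present in over 91% of barcodes in both groups and did not pass 2-fold. The transcription factor gene Stat2 was at 112 and 63.1 CPM (0.83) and Irf9, whose product binds the ISRE, at 88.4 and 64.8 CPM (0.45). Usp18, which limits signalling at the type I receptor, had 40.2 and 12.7 CPM (1.66). Zbp1, a sensor of Z-form nucleic acid (29.4 and 4.40 CPM), Oasl1 (20.7 and 3.18 CPM) and Slfn8 (13.3 and 1.96 CPM) were below the minimum level and were not counted. The summed level of the list reached 9204 CPM in paired members, 8858 CPM in unpaired members, 5859 CPM in barcodes with 1 or 2 UMIs and 4950 CPM in the paired barcodes with none. The sums of shallow and deep members were close to each other.

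Per barcode, the list made up a median of 89.0 in 10000 UMIs in paired members (quartiles 59.1 and 120, lowest 12.3, highest 382). In the paired barcodes with 0 UMIs the median was 46.9 (quartiles 37.5 and 61.0, lowest 5.50, highest 145). The groups overlapped, and 3.94% of the barcodes with 0 UMIs lay above the median of the members. Barcodes with 1 or 2 UMIs had a median of 54.0. For the GBP and IRG genes the medians were 13.3 and 8.01 in 10000 UMIs, with 21.8% of the barcodes with 0 UMIs above the members' median.

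The guanylate-binding proteins (GBPs) and immunity-related GTPases (IRGs) attack vacuoles and membranes of intracellular pathogens. Their median log2 ratio was 0.94, with all 13 genes described above 0 (3075 of all 6768) and 5 at least 2-fold higher. These 5 were Igtp (53.6 and 16.4 CPM, 1.71), Gbp3 (69.1 and 21.8 CPM, 1.67), Irgm2 (83.4 and 31.3 CPM, 1.41), Gbp5 (32.3 and 12.7 CPM, 1.35) and Ifi47 (1.15). Igtp and Gbp5 reached the minimum level only through the members. Iigp1 was at 494 and 257 CPM (0.94), and Gbp4 had the smallest ratio of the list, at 167 and 132 CPM (0.34, 0.18 to 0.51).

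RNA of the genes for MHC class I presentation was higher by less. All 18 genes were above 0 (3075 of all 6768 described), with a median of 0.46 and 3 genes past 2-fold. The non-classical class I genes H2-Q6 (184 and 80.9 CPM, 1.18) and H2-Q7 (441 and 197 CPM, 1.16), whose near-identical sequences make the division of reads between them uncertain, and the peptide transporter subunit Tap1 (79.2 and 38.6 CPM, 1.04) were these 3. The classical heavy chains H2-K1 (2206 and 1388 CPM, 0.67) and H2-D1 (2144 and 1460 CPM, 0.55) and their light chain B2m (3611 and 2481 CPM, 0.54) were found in over 97% of barcodes in both groups. The immunoproteasome subunits Psmb8 and Psmb9 had log2 ratios of 0.44 and 0.47, and Nlrc5, the activator of class I transcription, 0.53. The intervals of Erap1 (0.03, -0.19 to 0.25), Psmb10 (0.11, -0.07 to 0.28) and Tapbpl (0.17, -0.19 to 0.53) included 0. Of the MHC class II list only Cd74 was described, at 17.8 and 28.9 CPM (-0.70), and the summed list was at 45.9 and 54.0 CPM. Cd74 had a UMI in 7.27% and 6.97% of barcodes, with 16.7% and 33.9% of its UMIs in 1 barcode. The only gene of the checkpoint and T cell ligand list past 2-fold was Cd274, which encodes PD-L1, with 32.1 and 13.7 CPM (1.23, 0.77 to 1.71), in 14.7% and 7.12% of barcodes. The other 3 genes described there, Lgals9, Tnfsf10 and Il18bp, had log2 ratios between 0.25 and 0.52.

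**Figure D2:**
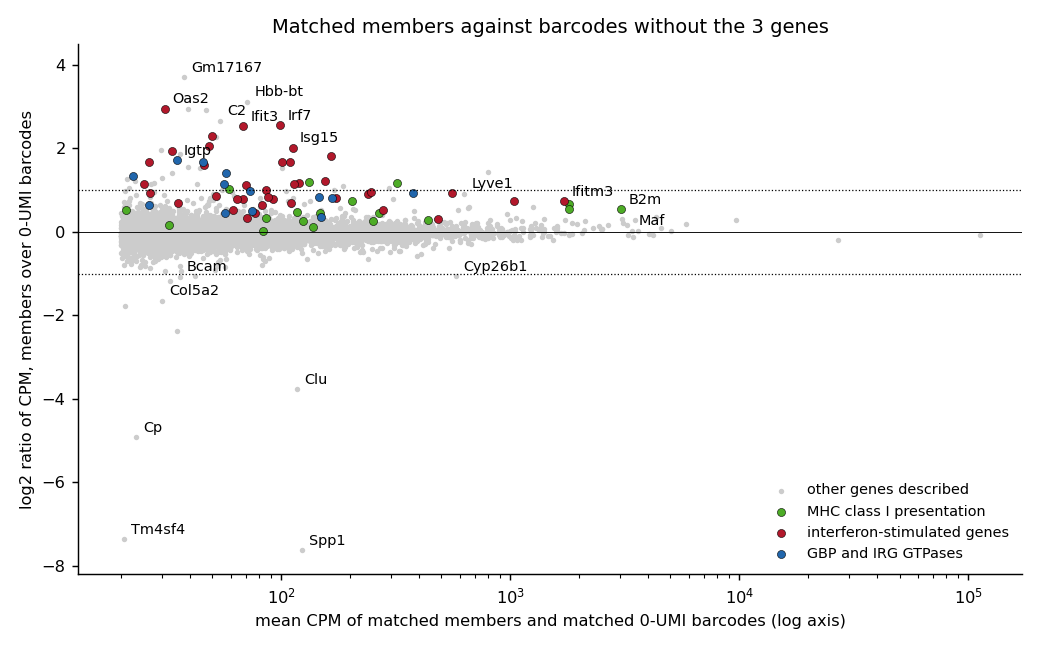
Log2 ratio of CPM of 660 paired members over 660 barcodes with 0 UMIs of the 3 genes, against the mean CPM of both groups (log axis), with 1 point per gene and 3 gene lists in colour. Dotted lines mark 2-fold. Genes of the interferon-stimulated, GBP and IRG, and MHC class I lists lie above 0, and Spp1, Tm4sf4, Cp and Clu, the lowest points, come from few barcodes.

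Interferon transcripts were at or near 0. Ifnb1, Ifna1, Ifna4, Ifnl2, Ifnl3 and the receptor gene Ifnlr1 had 0 UMIs in both paired groups, which allows up to 0.741 CPM in members, and Ifng had 1 UMI in members. The receptor subunits were at close levels, with log2 ratios of 0.24 for Ifnar1, 0.22 for Ifnar2, 0.10 for Ifngr1 and 0.13 for Ifngr2. Among 11 described genes of signal transduction and feedback none was past 2-fold and the median was 0.06. The largest ratios there were those of the transcription factors Irf8 (83.7 and 53.6 CPM, 0.64) and Irf1 (127 and 101 CPM, 0.33) and of the kinase Jak1 (1544 and 1247 CPM, 0.31). Of 7 sensors of nucleic acids and microbial products described, none was past 2-fold (median 0.19), and Ifi204 (0.79) and Ifi203 (0.56), interferon-inducible DNA-binding proteins, stood highest. Tlr3 and Tlr4 had ratios of -0.01 and 0.01. The NF-kB and inflammatory list (11 described, 0 past 2-fold, median 0.36) was led by the adhesion molecules Vcam1 (103 and 58.4 CPM, 0.82) and Icam1 (65.4 and 41.8 CPM, 0.65), which hold leukocytes on endothelium.

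Members had few other chemokines. Of 25 measured, only Cxcl16 (322 and 270 CPM, 0.25) and Ccl25 (22.7 and 18.8 CPM, 0.27) reached the minimum level. Ccl2, a monocyte attractant, had 10 UMIs in paired members and 0 in the paired barcodes, Ccl5 13 and 36, and Cxcl1 7 and 8. The level of Ccl2 was 2.47 CPM in paired and 10.2 CPM in unpaired members. Of the 36 Ccl5 UMIs, 83.3% were in 1 barcode. Cxcl11, the third ligand of CXCR3, Mx1 and Mx2 are not among the genes of the tables used here.

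**Figure D3:**
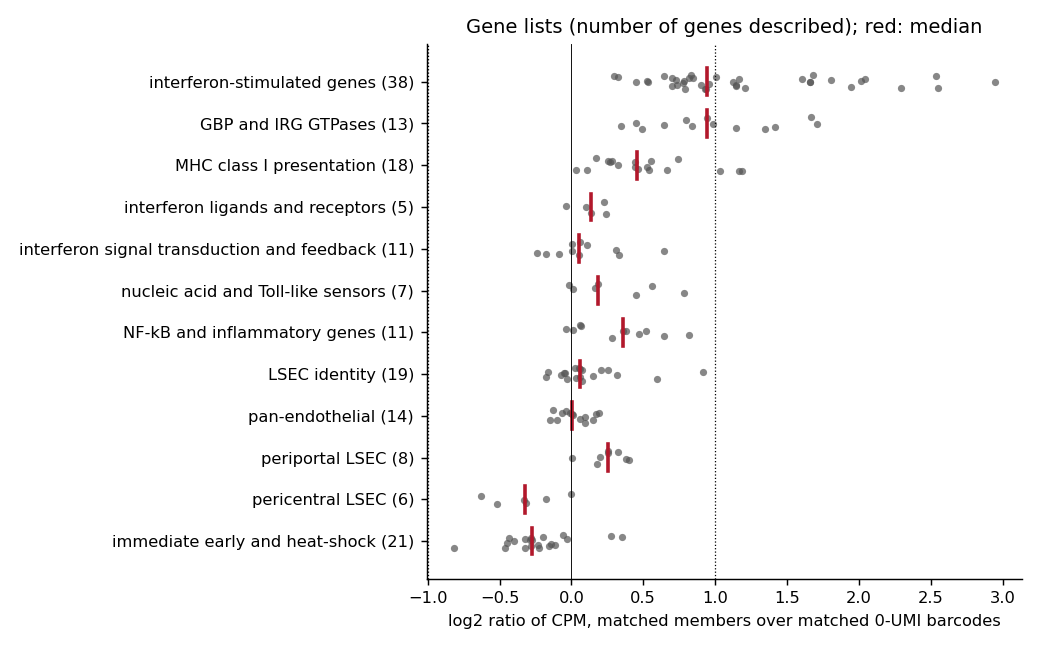
Log2 ratio of CPM of paired members over paired barcodes with 0 UMIs for the genes of 12 lists, with 1 point per gene described, their number in brackets and the median in red. Dotted lines mark 2-fold. The medians are 0.95, 0.94 and 0.46 for the upper 3 lists and -0.32 and -0.28 for the pericentral and the immediate early and heat-shock lists.

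In none of the gene lists used here, those of cell type markers included, stood 18 of the 50 higher genes. Gm17167, a gene model in a duplicated region of chromosome 4 that overlaps another locus, so that its reads are uncertain, had the largest ratio of all, with 69.9 and 5.38 CPM (3.70, 3.07 to 4.40), in 19.4% and 2.88% of barcodes. Slfn2, a Schlafen family gene, was at 69.1 and 9.05 CPM (2.93), and C2, the complement component cleaved to form the C3 convertase, at 93.1 and 14.7 CPM (2.67). The PYHIN genes Ifi206 (82.7 and 11.0 CPM, 2.91), Ifi211 (1.96), Ifi213 (1.54) and Ifi207 (1.23), relatives of Ifi204, also passed. Ccn2, which encodes a matrix-associated growth factor, was at 56.8 and 15.7 CPM (1.86), and the protease inhibitor gene Serpina3f at 149 and 51.8 CPM (1.52). Gm17167, Slfn2, C2, Ifi206, Ifi211 and Ccn2 reached the minimum level only through the members. Plac8, counted in the list of myeloid markers and so not among the 18, was at 86.2 and 17.9 CPM (2.27).

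Genes of LSEC identity differed little. Of 19 identity genes described none was past 2-fold, and the median log2 ratio was 0.06. Maf itself was at 3423 and 3359 CPM (0.03, -0.01 to 0.06), Stab2, the hyaluronan scavenger receptor, at 1644 and 1676 CPM (-0.03) and Fcgr2b at 2564 and 2465 CPM (0.06). The exceptions were Lyve1, another hyaluronan receptor, with 821 and 436 CPM (0.91), in 528 and 408 of the 660 barcodes, the lysosomal protease gene Ctsl (1509 and 999.9 CPM, 0.59) and Clec4g (3410 and 2743 CPM, 0.31). The 14 pan-endothelial genes had a median of 0.01 (-0.15 to 0.19). In the list of continuous or capillary endothelial genes (6 described, median -0.06), Ly6a, which is also induced by interferons, was at 1317 and 769.8 CPM (0.77), and Plvap (-0.33) and Cd9 (-0.44) were lower.

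Only 3 of the 11 lower genes were found in at least 10% of the barcodes with 0 UMIs. These were Col5a2, a fibrillar collagen chain (14.6 and 45.7 CPM, -1.65), Bcam, a laminin receptor (23.2 and 48.9 CPM, -1.08), and Cyp26b1, an enzyme that degrades retinoic acid (377 and 784 CPM, -1.06, -1.15 to -0.97), with a UMI in 35.6% and 53.9% of barcodes. In unpaired members they were at 23.3, 30.9 and 522 CPM. The largest negative ratios came from few barcodes. Spp1 had 998 UMIs in 7 of the 660 barcodes with 0 UMIs of the 3 genes and 5 UMIs in 4 members, and Tm4sf4, Cp and Clu had 43.7%, 45.1% and 44.4% of their UMIs in 1 barcode.

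Genes of the position along the sinusoid differed in opposite directions. All 6 pericentral genes described were below 0 (median -0.32, from -0.63 to -0.0018), while 3075 of all 6768 genes described were above 0. The pericentral sum was 794 CPM in members and 1004 CPM in the paired barcodes (log2 ratio -0.34, -0.41 to -0.27). Thbd (69.4 and 107 CPM, -0.63) and Cdh13 (101 and 145 CPM, -0.52) had the lowest ratios, and Wnt2, a Wnt ligand of the central vein region, was at 232 and 262 CPM (-0.18). All 8 periportal genes described were above 0 (median 0.26, from 0.0065 to 0.40), and their sum was 4232 and 3605 CPM (0.23). The gene nearest 0 in each of the pericentral and periportal lists was at nearly the same level in both groups. The Notch ligand Dll4 was at 147 and 111 CPM (0.40), and the lipid scavenger Cd36 at 1180 and 945 CPM (0.32). No gene of either list was past 2-fold. The pericentral ratio was -0.15 without matching and -0.17 with every barcode thinned to 2700 UMIs, and the periportal ratio was 0.10 without barcodes that held UMIs of other cell types. Rspo3 was 0 in both groups by the rule.

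The share of control LSECs that met the rule also went with Cyp26b1 and Lyve1, which were chosen after their values had been seen. Thinned to 2700 UMIs, 29.2% (27.3 to 31.1%) of the 2184 LSECs without a Cyp26b1 UMI met the rule, 17.6% (14.6 to 20.9%) of the 585 with 1 or 2, and 9.44% (7.31 to 11.9%) of the 657 with 3 or more. Cxcl9 was at 565, 326 and 225 CPM, Cxcl10 at 247, 119 and 50.9 CPM and Rsad2 at 188, 123 and 125 CPM in these groups. By Lyve1 the shares ran the other way, with 14.3% (12.5 to 16.2%) at 0, 24.98% (22.6 to 27.5%) at 1 or 2 and 37.4% (34.0 to 40.8%) at 3 or more UMIs. The median depth before thinning was between 8794 and 9494 UMIs in the Cyp26b1 groups and between 7706 and 10698 UMIs in the Lyve1 groups. In the Maf LSEC-KO library the shares by Cyp26b1 were 27.8% (25.9 to 29.7%) of 2151, 33.0% (28.5 to 37.8%) of 415 and 42.4% (33.3 to 51.8%) of 118 barcodes. By Lyve1 they were 28.9% (26.8 to 31.0%), 30.2% (26.4 to 34.2%) and 29.6% (24.2 to 35.3%).

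At equal depth the other genes followed the number of UMIs of the 3 genes in steps. From barcodes with 0 UMIs after thinning (1408) over those with 1, 2, 3 to 4 and 5 to 9 to the 85 with 10 or more, the summed interferon-stimulated genes were at 5571, 6791, 7910, 9617, 11395 and 15561 CPM. MHC class I went from 7653 to 13643 CPM, and the GBP and IRG genes from 1026 CPM over 2103 CPM at 5 to 9 UMIs to 4872 CPM at 10 or more. Isg15 went from 67.0 to 541 CPM, Irf7 from 48.3 to 261 CPM and Lyve1 from 507 to 1396 CPM. Cyp26b1 went from 731 CPM to 178 CPM at 5 to 9 and 226 CPM at 10 or more, while Maf (3389 and 3387 CPM) and Pecam1 (659 and 634 CPM) were at close levels at both ends. Each step up in the 3 genes came with a step up in the interferon-stimulated sum. The median depth before thinning also differed, with 7966 UMIs at 0, 10314 at 2 and 10601 at 10 or more. The part of this depth in the steps was not tested.

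**Figure D4:**
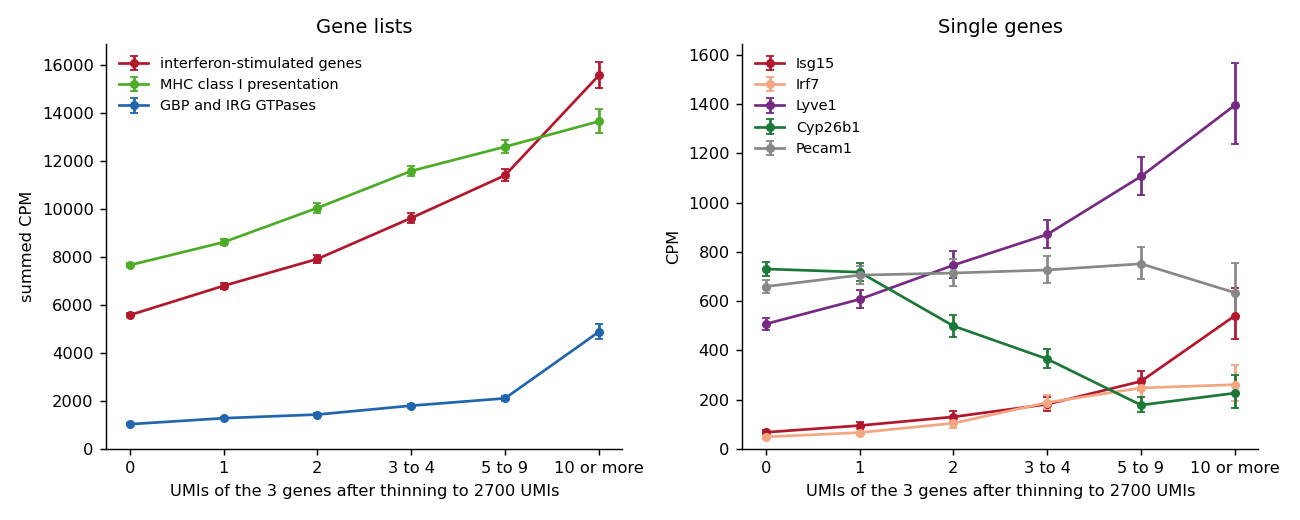
Summed CPM of 3 gene lists (left) and CPM of 5 single genes (right) in control LSECs thinned to 2700 UMIs, by UMIs of Cxcl9, Cxcl10 and Rsad2 together, with 95% Poisson intervals. The interferon-stimulated sum goes from 5571 to 15561 CPM, Cyp26b1 from 731 to 226 CPM, and Pecam1 is at 659 and 634 CPM.

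Over 1787 members thinned to 2700 UMIs, Spearman's rho was 0.13 between Cxcl9 and Cxcl10, -0.03 between Cxcl9 and Rsad2 and 0.06 between Cxcl10 and Rsad2. Pearson's r, which a few barcodes with many UMIs can set, was 0.46, 0.24 and 0.51. These cells share 1 library, and a rule on the sum of the 3 genes lowers the correlations among them, so no strength of relation can be read from these values. The summed interferon-stimulated genes and the summed GBP and IRG genes had a rho of 0.46. The variance over the mean, across all 3426 thinned LSECs, was 8.31 for Cxcl10, 6.96 for Cxcl9 and 3.58 for Rsad2, 2.46 for Maf, 1.96 for Isg15, 1.83 for Stab2 and 1.13 for Pecam1. A value of 1 would be counting error alone, and the ratio depends on the mean, which ran from 0.29 UMIs for Isg15 to 8.09 for Maf. In a map of paired barcodes by 20 principal components, without the 3 genes, 57.0% of the 30 nearest neighbours of a member were members, against 43.6% for barcodes with 0 UMIs, in a set with 49.8% members. Without the interferon, GBP and MHC lists these shares were 54.0% and 46.1%.

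Members could be divided by the gene that gave at least 80% of their UMIs of the 3 genes. Cxcl9 led in 579 members (31.7%), Rsad2 in 119 (6.52%) and Cxcl10 in 54 (2.96%), and 1074 were mixed. Cxcl9-led and Rsad2-led members had close depths (medians of 10213 and 10061 UMIs) and were compared after this division had been seen. Of 6721 genes described, 30 were at least 2-fold higher in Cxcl9-led members (0.446%) and 25 at least 2-fold lower (0.372%). Of the 25, 4 were hemoglobin genes. The interferon-stimulated genes fell on both sides, with 16 of 38 above 0 and 3 past 2-fold. Higher in Cxcl9-led members were C2 (99.1 and 14.9 CPM, log2 ratio 2.74), Gm17167 (77.9 and 12.2 CPM, 2.67), Ifi27l2a (2.08), Oas2 (43.1 and 10.5 CPM, 2.04), Ccn2 (1.97) and Irf7 (150 and 59.5 CPM, 1.33). C2, Gm17167 and Oas2 rested on 17, 14 and 12 UMIs in Rsad2-led members. They had a UMI in 38.9%, 27.3% and 25.6% of Cxcl9-led and 9.24%, 6.72% and 6.72% of Rsad2-led barcodes. Ifit1 (48.6 and 92.7 CPM, -0.93), Cmpk2 (51.7 and 80.4 CPM, -0.64) and Isg15 (110 and 149 CPM, -0.43) lay on the side of Rsad2-led members without passing 2-fold. The summed MHC class I genes were higher in Cxcl9-led members (10768 and 7967 CPM, 0.43, 0.40 to 0.47), and the GBP and IRG genes were lower (1383 and 1651 CPM, -0.25, -0.33 to -0.18).

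Rsad2-led members had more RNA of Cyp26b1 (401 CPM in Cxcl9-led and 1167 CPM in Rsad2-led members, -1.54), of the Notch ligand Jag1 (9.16 and 32.4 CPM, -1.82), of Col5a2 (14.3 and 44.6 CPM, -1.64) and of Thbd, an anticoagulant cofactor (56.3 and 141 CPM, -1.32). Jag1 rested on 50 and 37 UMIs, in 5.18% and 10.1% of barcodes. The pericentral sum was 718 CPM in Cxcl9-led and 1051 CPM in Rsad2-led members (-0.55, -0.64 to -0.46), and the periportal sum 4464 and 3724 CPM (0.26, 0.21 to 0.31). Lyve1 was at 929 and 574 CPM (0.69).

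**Figure D5:**
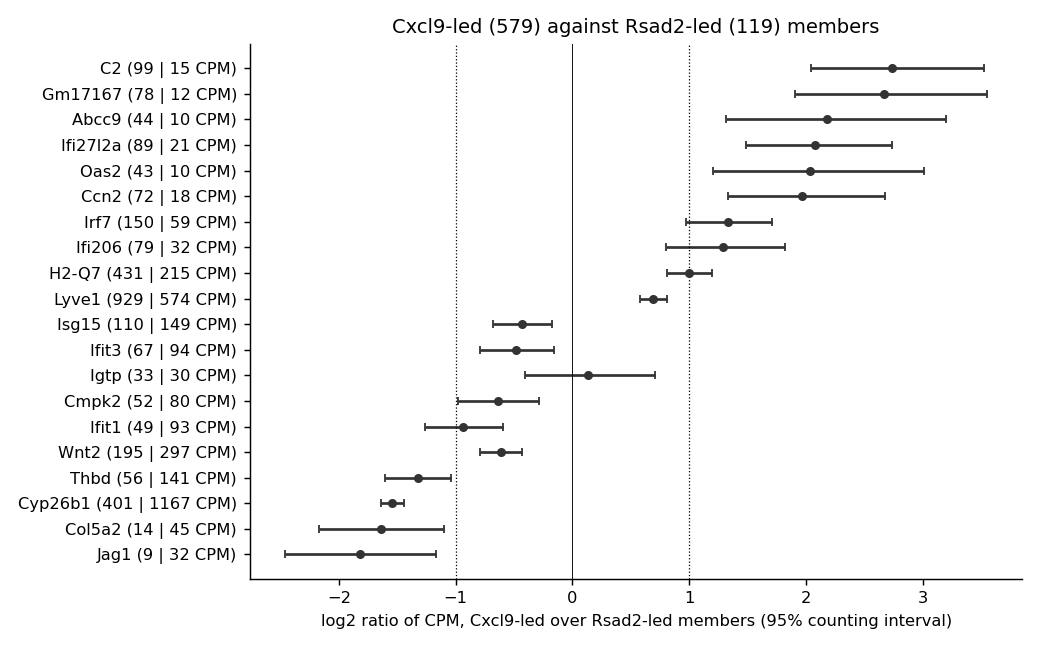
Log2 ratio of CPM of 579 Cxcl9-led over 119 Rsad2-led members for selected genes, with 95% Poisson intervals and the CPM of both groups in brackets. Dotted lines mark 2-fold. C2, Gm17167 and Oas2 lie on the Cxcl9-led side, and Cyp26b1, Col5a2 and Jag1 on the Rsad2-led side.

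Markers of other cell types were at low levels. The 12 Kupffer cell and macrophage markers summed to 132 CPM in paired members, 80.9 CPM in paired barcodes with 0 UMIs and 64.1 CPM in unpaired members, with Adgre1 at 0 by the rule, C1qa at 29.1 and 14.2 CPM (1.04, past 2-fold, but 12.1 CPM in unpaired members) and Clec4f at 24.4 and 14.2 CPM. The 15 myeloid markers summed to 116 and 47.4 CPM, of which Plac8 made up 86.2 and 17.9 CPM, and Itgam was at 0 in both. T and NK cell markers (6.91 and 10.5 CPM, with Cd3e, Cd3g, Trac and Nkg7 at 0 in both), B cell markers (3.46 and 2.20 CPM) and stellate markers (12.1 and 13.7 CPM, with Col1a1, Pdgfra, Pdgfrb and Acta2 at 0 in both) were near 0. Immune pan-markers summed to 179 and 171 CPM, mostly Fcer1g, and hepatocyte markers to 304 and 363 CPM, with Ttr at 81 and 185 UMIs (-1.18). Cd79a, Dcn and Ptprc, of the B cell, stellate and immune pan-marker lists, were like Adgre1 at 0 by the rule. The low sums of these lists were thus partly set by the choice of barcodes. Without barcodes with 2 or more UMIs of these immune and stellate lists, 355 pairs gave 40 genes at least 2-fold higher and a median of 0.83 for the interferon-stimulated genes. Hemoglobin made up 3 of the 50 higher genes, with over 99% of the UMIs of Hba-a2, Hbb-bs and Hbb-bt in 1 member.

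The share of mitochondrial UMIs had medians of 4.36% in paired members and 4.76% in the paired barcodes. Of 21 immediate early and heat-shock genes described, which respond to cell isolation, 2 were above 0 in members (3075 of all 6768, median -0.28 in the list, none past 2-fold), and the nuclear-retained RNAs Malat1 (-0.19) and Neat1 (-0.53) were lower. Their part in the results was not tested. Cycling genes were at 120 and 189 CPM in sum, but at 289 CPM in unpaired members. Top2a was at 9.38 and 32.3 CPM (-1.78) from 38 and 132 UMIs, of which 57.9% and 37.1% were in 1 barcode, and at 48.2 CPM in unpaired members. The Y-linked genes Ddx3y, Eif2s3y, Uty and Kdm5d had log2 ratios between -0.15 and 0.12. The list of sex genes summed to 237 CPM in paired members and 231 CPM in the paired barcodes, and Xist had 0 UMIs in both groups.

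In the Maf LSEC-KO library 1977 of 2843 barcodes met the same rule (69.5%, 67.8 to 71.2%), at a median of 16553 UMIs. Thinned to 2700 UMIs the share was 29.2% (27.5 to 31.0%), against 23.4% (22.0 to 24.9%) in the control. With 1 library per condition this difference could not be tested. In 258 pairs of that library 62 of 7259 genes were at least 2-fold higher and 79 at least 2-fold lower. Of the 50 genes higher in control members, 46 were described there, 42 had a ratio above 0 and 26 were at least 2-fold higher. Irf7 was at 316 and 101 CPM, Isg15 at 479 and 191 CPM and C2 at 31.1 and 9.79 CPM in the paired barcodes with and without the 3 genes. Other genes took another direction or level. Gm17167 was at 10.4 and 33.9 CPM, Ccn2 at 164 and 193 CPM, Lyve1 at 353 and 336 CPM and Cyp26b1 at 194 and 62.0 CPM.

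An ISRE core was found in the windows of 13 of the 38 higher genes with a RefSeq window (34.2%), against 2.98% of all windows and 2.73% of the 5430 windows of genes described. It was found in 10 of 11 windows of GBP and IRG genes (90.9%), 11 of 34 windows of interferon-stimulated genes (32.4%) and 2 of 15 windows of MHC class I genes (13.3%). A GAS was found in 6 of the 11 GBP and IRG windows (54.5%), 7 of the 38 windows of higher genes (18.4%), 5 of the 34 of interferon-stimulated genes (14.7%) and 1 of the 15 of MHC class I genes (6.67%), against 7.02% of all windows and 5.49% of those of genes described. Of the 15 genes with the largest ratios, 10 had a window, of which 6 held an ISRE core and none a GAS.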

How the data were processed

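Control and Maf LSEC-KO LSECs were measured as 1 library of 3 pooled mice each. The authors deposited unnormalized UMI counts for 32285 genes, per the submitters' processing notes from Cell Ranger 6.0.2 with mm10 and Seurat 5.0.1. The empty-droplet subtraction of their methods is not part of these counts, and doublets were not removed for the values in the text.

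Members were chosen by raw UMIs. The members and gene lists were chosen with earlier results of these data known. Pairing 5 barcodes to each member had been planned but was impossible, because 1826 members outnumbered 974 barcodes with 0 UMIs. Pairs within 0.05 on the natural log scale of total UMIs were used instead, chosen after these numbers were known. Ratios are of summed UMIs as CPM, and called means past 2-fold at a mean of at least 20 CPM. The genes named were those of the lists, the 15 largest and 15 smallest ratios among genes with a UMI in at least 10% of barcodes of the higher group, Maf, and the genes of the rule; the comparison of Cxcl9-led with Rsad2-led members and the split by Cyp26b1 and Lyve1 were added after the data had been seen. Some genes of the lists are not reported here. Shares after thinning used 2700 UMIs. Scrublet, in scanpy 1.11.5, marked 0 barcodes by its automatic limit, so the 225 highest scores were left out of the control as an alternative. For genes with 0 UMIs the upper limit is that of 3 UMIs. The computations used Python 3.11.15, numpy 2.4.6, pandas 2.3.3 and scipy 1.17.1 and were tested on simulated data.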

Additional observations from a re-analysis of the deposited data

How the results depend on the processing

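A minimum of 5 UMIs of the 3 genes gave 20 lower genes and log2 values of 1.24 for the GBP and IRG median, -0.43 for the pericentral and 0.26 for the periportal sum. All barcodes with 0 UMIs without matching, which is the same set as the planned 1 matched barcode per member, gave -0.15 for the pericentral sum. Members and others thinned to 2700 UMIs gave 6 lower genes, 1.06 for the GBP and IRG median and -0.17 for the pericentral sum. Without barcodes with UMIs of other cell types, the pericentral and periportal sums were -0.43 and 0.10. A minimum mean of 50 CPM gave 25 higher and 3 lower genes, and one of 10 CPM gave 64 higher and 30 lower genes. The control share was 58.7% at a minimum of 2 UMIs, 35.2% at 5 UMIs, 23.4% when thinned and 51.1% without barcodes over 10% mitochondrial UMIs, and the Maf LSEC-KO share was 78.0%, 58.7%, 29.2% and 73.9%. The other 44 values, including those at a minimum of 5000 UMIs per barcode, which was chosen after seeing the data, were labelled unchanged, and no value listed here changed its sign. The limits were 1.5 times a count, or the counting error of a share or sum. For a list median they were the medians of its genes' limits (0.77 to 1.19 for the interferon-stimulated genes), which are not the counting error of the median. That median was 1.16 at a minimum of 5 UMIs of the 3 genes. The neighbour share of members was also among the 44. Its difference to barcodes with 0 UMIs went from 13.4 to 7.82 percentage points without the interferon, GBP and MHC lists. No paired analysis was possible because each condition is 1 library, and no replicate could be left out for the same reason. The spread between mice is unknown, barcodes below 500 UMIs were not analysed here, and levels near 20 CPM rest on few UMIs, so that ratios of such genes are imprecise.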
